A study of Rattus norvegicus with 16 samples.

Results

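Antioxidant defence was examined through 6 genes for enzymes that dispose of reactive oxygen species or respond to oxidants, namely Sod1 (ENSRNOG00000002115), Sod2 (ENSRNOG00000019048), Sod3 (ENSRNOG00000003869), Cat (ENSRNOG00000008364), Hmox1 (ENSRNOG00000014117) and Nqo1 (ENSRNOG00000012772). They were chosen by identifier from the 23918 genes listed in both the aorta and the kidney table. The rule did not use their values, although earlier results of these data were known. All 6 were listed in both tables and all 6 passed the filter on low counts in every comparison. The comparison of rats kept in room air (RA) with rats exposed to hyperoxia asks whether these defence genes were still altered at 1 year, long after the oxygen exposure had ended.

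Superoxide, a by-product of respiration that increases at high oxygen tension, is converted to hydrogen peroxide by the superoxide dismutases. Sod1 encodes the copper-zinc enzyme of the cytosol, Sod2 the manganese enzyme of mitochondria, and Sod3 the secreted enzyme that binds the extracellular matrix and is a major dismutase of the arterial wall. Cat encodes catalase, the peroxisomal enzyme that breaks down hydrogen peroxide and is abundant in kidney tubules. Hmox1 encodes heme oxygenase, and Nqo1 encodes a quinone reductase, both induced by oxidants through the transcription factor Nrf2.

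The rats were male wild-type Sprague-Dawley animals aged 1 year. The study's groups at that age held both sexes, and the paper does not give the sex of the sequenced rats. The hyperoxia group breathed 85% oxygen from postnatal day 1 to 14 and then recovered in room air, while the RA group breathed room air throughout. Polyadenylated RNA from whole tissue, the aortic arch with the thoracic aorta or the kidney, was sequenced in 4 RA and 4 hyperoxia libraries per organ, 16 in all. Deaths occurred among the exposed pups, so the hyperoxia libraries represent survivors. Nothing in the labels states that an aorta and a kidney came from the same rat, although 3 hyperoxia aortas and 3 hyperoxia kidneys carry the same library number. The p-values measure the spread between these libraries.

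Levels are given as CPM (counts per 1000000 counts of the library) and are compared within a gene only. The RA aorta libraries held 33611500 to 47021600 estimated counts and the hyperoxia aorta libraries 68643300 to 83929100 (totals to 6 digits), so that every hyperoxia aorta was sequenced more deeply than every RA aorta. Depth and exposure therefore cannot be told apart in the aorta, and values with every aorta library thinned to the smallest total are given beside the others. The RA kidney libraries held 25527200 to 25868400 counts and the hyperoxia kidney libraries 25031900 to 26521800. Organ and sequencing set cannot be told apart. The identifiers are not paired with gene names, so markers of vascular and tubular cells could not be read and the labelled tissues were not checked against them. In whole tissue, fewer cells of a type cannot be told apart from less RNA per cell.

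None of the 6 genes passed edgeR's quasi-likelihood test of hyperoxia against RA in either organ (false discovery rate, FDR, below 0.1, with a log2 fold change beyond 0.32 in either direction). Aortic Sod1 had a lower mean and aortic Sod3 a higher mean after hyperoxia, and renal Hmox1 a higher mean, but the libraries of the groups overlapped in each case. The large differences lay between the organs. Cat was 9.22-fold higher in kidney than in aorta in RA rats, Sod1 and Sod2 were also higher in kidney, and Sod3 was 2.32-fold higher in aorta.

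**Figure D1:**
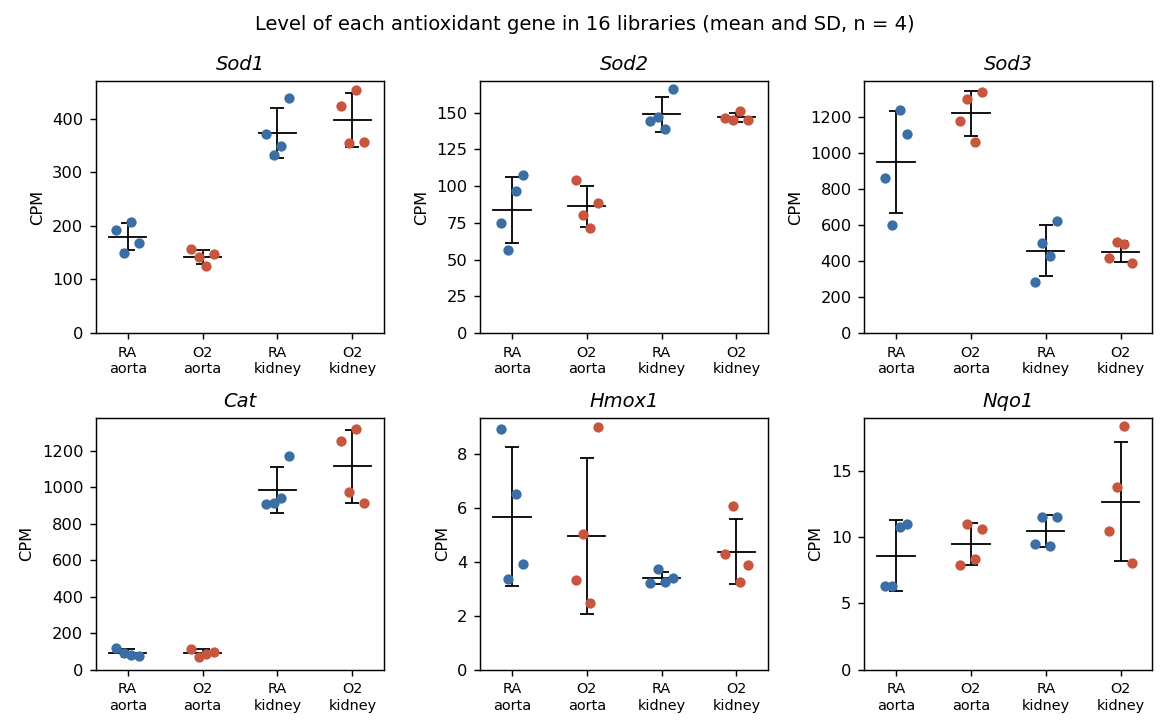
Each panel plots 1 gene, with CPM on an axis that starts at 0 and the 4 groups along the horizontal axis (O2, hyperoxia). Points are libraries, in replicate order from left to right, and the bars give the mean and SD of 4 libraries. The RA and hyperoxia points overlap within each organ for all 6 genes, whereas the aorta and kidney points of Sod1, Sod2 and Cat are separate.

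In the aorta, the Sod1 CPM was 192, 150.3, 208 and 169 in RA replicates 1 to 4. It was 156, 142, 125 and 147 in hyperoxia replicates 1 to 4. The mean was 179.8 ± 25.3 in RA and 142 ± 13.3 in hyperoxia (SD, n = 4 each), and only hyperoxia replicate 1 reached above the lowest RA library. The log2 fold change was -0.38 (SE 0.15, 95% confidence interval -0.72 to -0.03, FDR = 0.521 by edgeR's quasi-likelihood test), or 1.30-fold lower. The interval before adjustment excluded 0, while the adjusted value did not pass. With every library thinned to the smallest total, the log2 fold change was -0.38 (FDR = 0.519). An exact permutation test of the 4 libraries against 4 gave p = 0.0571 (two-sided, 0.229 after adjustment over the 12 gene and organ combinations), where the smallest p possible is 0.0286. Leaving out RA replicate 1, the library with the highest Sod1 after normalization, gave -0.28 (FDR = 0.723).

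Aortic Sod3 had an estimate of the opposite sign. Its CPM was 859, 597, 1238 and 1103 in RA replicates 1 to 4 and 1178, 1299, 1061 and 1339.8 in hyperoxia replicates 1 to 4. RA replicates 3 and 4 lay within the range of the hyperoxia libraries, and RA replicate 2 was the lowest of the 8. After TMM normalization only RA replicate 3 lay within it, at 1114 CPM against 1112 to 1340 in hyperoxia. The mean was 949 ± 283 CPM in RA and 1219.6 ± 126 in hyperoxia (SD, n = 4 each), and the log2 fold change of 0.35 did not pass the test (SE 0.18, interval -0.04 to 0.75, edgeR FDR = 0.578). The exact permutation test gave p = 0.0571 (adjusted 0.229), and 0.143 (adjusted 0.571) with library totals only. With voom the log2 fold change was 0.20 (FDR = 0.504), and thinned to the smallest total it was 0.35. Between-library spread was 29.8% of the mean in RA and 10.3% in hyperoxia, and the difference in spread was not tested.

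The gene of the mitochondrial enzyme had an estimate near 0. Sod2 CPM was 74.8, 56.5, 96.4 and 108 in RA aortas and 104, 80.4, 71.2 and 88.7 in hyperoxia aortas, in replicate order. The hyperoxia values all lay inside the RA range. After TMM normalization, hyperoxia replicate 1 lay above it, at 109 CPM against at most 94.2 in RA. The log2 fold change was 0.04 (interval -0.34 to 0.42, edgeR FDR = 0.959), and voom with quality weights gave -0.14.

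Catalase, which removes the hydrogen peroxide that dismutases form, had nearly equal group means in the aorta of 91.6 ± 21.2 CPM in RA and 91.8 ± 20.5 in hyperoxia (SD, n = 4 each). Its CPM was 121, 92.5, 80.4 and 72.7 in RA replicates 1 to 4 and 116, 67.6, 85.0 and 98.3 in hyperoxia replicates 1 to 4. The range within either group was wider than the difference between them. The log2 fold change was -0.06 (interval -0.70 to 0.58, edgeR FDR = 0.962) and its sign changed with library totals only.

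Of the oxidant-inducible genes, Hmox1 varied most between aortas. Hmox1 CPM was 8.91, 3.37, 6.52 and 3.90 in RA replicates 1 to 4 and 3.31, 5.04, 2.45 and 8.98 in hyperoxia replicates 1 to 4. One library of each group, RA replicate 1 and hyperoxia replicate 4, stood above the rest at 8.91 and 8.98 CPM. The log2 fold change of -0.27 (interval -1.29 to 0.75, edgeR FDR = 0.867) moved to 0.13 without RA replicate 1 and to -0.74 without hyperoxia replicate 4. The interval ran from 0.409-fold to 1.69-fold, so a moderate difference in either direction was not detectable. Nqo1 CPM was 6.29, 6.31, 10.8 and 11.0 in RA replicates and 7.90, 11.0, 8.33 and 10.6 in hyperoxia replicates, and the log2 fold change was 0.13 (interval -0.26 to 0.51, edgeR FDR = 0.830). Thinned to the smallest total, the aortic log2 fold changes of Sod2, Cat, Hmox1 and Nqo1 were 0.04, -0.04, -0.31 and 0.11.

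Among all 15086 genes tested in the aorta, 3 were called, a share of 0.0199%, and 0 of the 6 antioxidant genes were among them. At an unadjusted p under 0.05, 1 of the 6 (Sod1) passed in edgeR, against 9.24% of all genes. DESeq2 and voom with quality weights called 0 of the 6, with 2 (Sod1 and Sod3) and 1 (Sod1) at an unadjusted p under 0.05, against 1661 and 2267 of the 15086 genes. They called 170 and 20 genes in all. The groups did not overlap in CPM for 3.64% of all genes, and for 0 of these 6. The median absolute log2 fold change was 0.20 for the 6 genes and 0.21 for all genes.

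**Figure D2:**
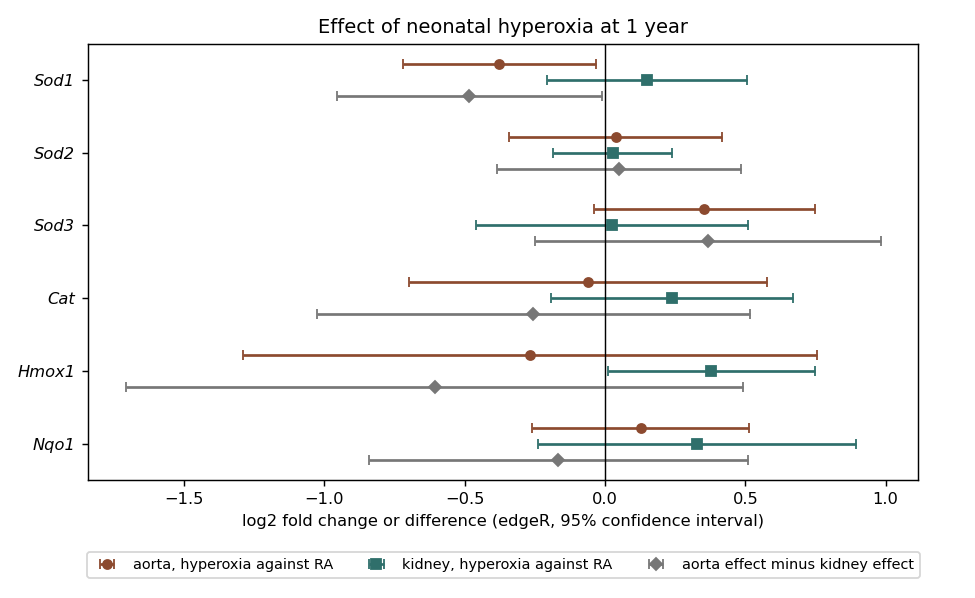
The horizontal axis gives the log2 fold change of hyperoxia against RA in aorta (circles) and kidney (squares), and the difference between both effects (diamonds), with 95% confidence intervals from edgeR for each gene on the vertical axis. Intervals of aortic Sod1, renal Hmox1 and the Sod1 difference lie just off 0 before adjustment for the number of genes, and the others cross 0.

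In the kidney all 6 estimates lay above 0, and none passed the test. Library totals alone turned the small estimates of Sod2 and Sod3 to -0.02 each. Hmox1 came nearest to a difference, at 3.22, 3.72, 3.25 and 3.39 CPM in RA replicates 1 to 4 and 4.28, 6.05, 3.24 and 3.88 in hyperoxia replicates 1 to 4. Of the hyperoxia kidneys, replicate 3 lay within the RA range and the other 3 above it. The mean was 3.39 ± 0.230 in RA and 4.36 ± 1.20 in hyperoxia (SD, n = 4 each), and the log2 fold change 0.38 (SE 0.16, interval 0.01 to 0.75, edgeR FDR = 0.950). These levels rest on 83 to 95 counts in RA kidneys and 86 to 160 in hyperoxia kidneys, where counting error alone amounts to 7.91% to 11.0% of a value. The exact permutation test gave p = 0.0571 (adjusted 0.229), and 0.143 (adjusted 0.571) with library totals only. Leaving out any 1 of the 8 kidneys gave log2 fold changes of 0.28 to 0.46.

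Nqo1 had a log2 fold change of similar size in the kidney, 0.33 (SE 0.25, interval -0.24 to 0.90, edgeR FDR = 0.950), but this rested on 1 library. Its CPM was 9.51, 11.5, 9.36 and 11.5 in RA replicates 1 to 4 and 10.5, 13.8, 18.4 and 8.03 in hyperoxia replicates 1 to 4. Hyperoxia kidneys held both the highest and the lowest value. Without hyperoxia replicate 3, the library at 18.4 CPM, the log2 fold change was 0.03.

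Renal catalase was high in 2 of the 4 hyperoxia kidneys. Its CPM was 911, 914, 943 and 1175 in RA replicates 1 to 4 and 1253, 975, 1320.0 and 914 in hyperoxia replicates 1 to 4. Hyperoxia replicates 1 and 3 exceeded every RA kidney, and replicates 2 and 4 fell within the RA range. After TMM normalization, hyperoxia replicate 2 lay at 860 CPM, below every RA kidney (891 to 1106). The log2 fold change was 0.24 (SE 0.19, interval -0.19 to 0.67, edgeR FDR = 0.950), and it was 0.10 without hyperoxia replicate 3, 0.37 without hyperoxia replicate 2 and 0.38 with voom (FDR = 0.306).

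Among hyperoxia kidneys, Sod1 was likewise highest in replicates 3 and 1. Sod1 CPM was 372, 333, 349.6 and 439 in RA kidneys and 425, 355, 454 and 357 in hyperoxia kidneys, in replicate order, and the log2 fold change was 0.15 (interval -0.21 to 0.51, edgeR FDR = 0.955), moving to 0.035 without hyperoxia replicate 3 and to 0.27 without replicate 2. Sod2 CPM was 144, 147, 139 and 166 in RA kidneys and 146, 145, 151 and 145 in hyperoxia kidneys, with a log2 fold change of 0.03 (interval -0.19 to 0.24, edgeR FDR = 0.988). This was the narrowest interval of the 6 genes in the kidney. Sod3 CPM was 285, 498, 427 and 619 in RA kidneys and 419, 506, 492 and 388 in hyperoxia kidneys, and the log2 fold change of 0.02 (interval -0.46 to 0.51, edgeR FDR = 0.997) lay well inside the spread of the RA kidneys.

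In the kidney, edgeR called 0 of 15069 genes (0%) and 0 of the 6, with 4.96% of all genes and 1 of the 6 (Hmox1) at an unadjusted p under 0.05. DESeq2 and voom with quality weights also called 0 of the 6, with 1 (Hmox1) and 2 (Cat and Hmox1) at an unadjusted p under 0.05, against 5.94% and 14.2% of all genes. They called 23 and 0 genes in all. CPM did not overlap between the groups for 1.84% of all genes and 0 of the 6. The median absolute log2 fold change was 0.20 for the 6 genes and 0.11 for all genes. One hyperoxia kidney, which the methods do not name, was removed in the study, and all 8 kidneys were kept here. When each hyperoxia kidney in turn was left out of a DESeq2 fit, 0 of the 6 genes were called.

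**Figure D3:**
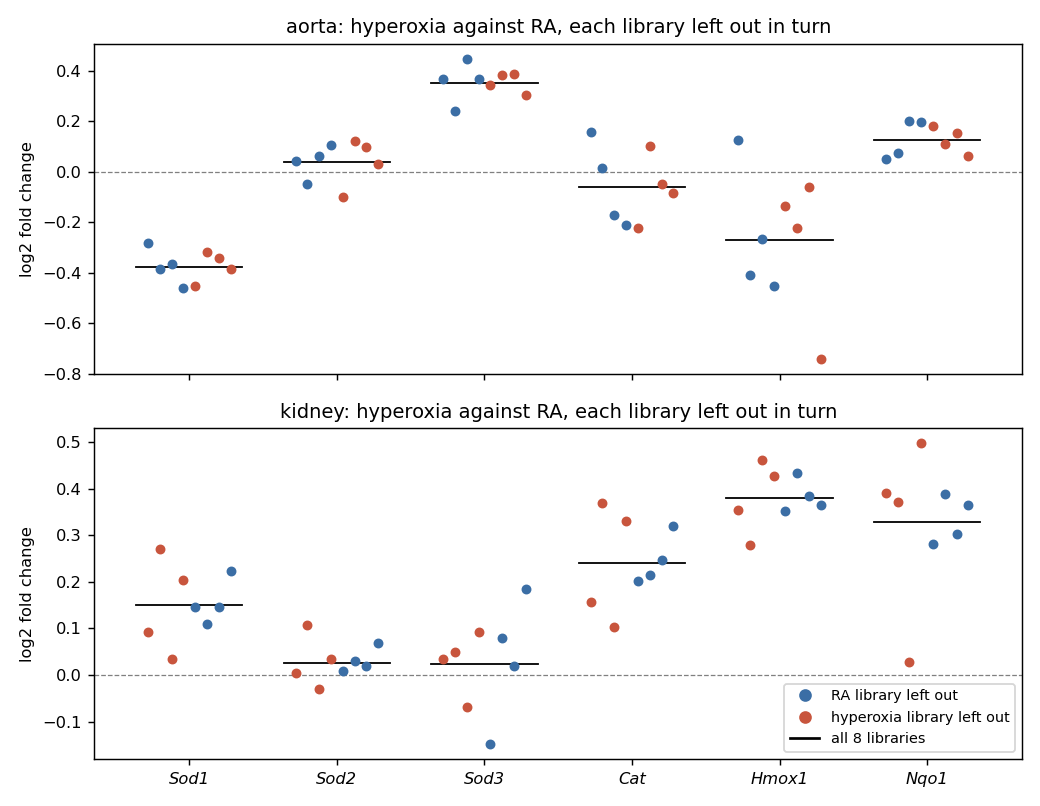
The vertical axes give the log2 fold change of hyperoxia against RA, refitted by edgeR with each of the 8 libraries of an organ left out in turn (points, coloured by the group of the library left out), and the horizontal line marks the value from all 8. Aortic Sod1 stays below 0 and aortic Sod3 above it in all 8 refits, while aortic Hmox1 ranges from -0.74 to 0.13 and renal Nqo1 from 0.03 to 0.50.

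The effect of hyperoxia in the aorta was then set against that in the kidney in a fit of all 16 libraries. The difference was -0.48 for Sod1 on the log2 scale (SE 0.22, interval -0.96 to -0.01, edgeR FDR = 0.616), which combines the lower aortic and the higher renal mean after hyperoxia. It did not pass the threshold, and the differences for the other 5 genes had intervals that crossed 0, from -0.61 for Hmox1 (interval -1.71 to 0.49) to 0.37 for Sod3 (interval -0.25 to 0.98). With 1 library left out the Hmox1 difference ran from -1.08 (without hyperoxia aorta replicate 4) to -0.22 (without RA aorta replicate 1), that of Cat from -0.41 (without hyperoxia aorta replicate 1) to -0.04 (without RA aorta replicate 1) and that of Sod3 from 0.23 (without RA kidney replicate 4) to 0.54 (without RA kidney replicate 1), and voom gave 0.12 for Sod3. edgeR called 0 of 16025 genes (0%) and 0 of the 6, with 7.97% of all genes and 1 of the 6 (Sod1) at an unadjusted p under 0.05. DESeq2 and voom with quality weights called 0 of the 6 as well, with Sod1 the 1 gene at an unadjusted p under 0.05 in each, against 9.52% and 16.4% of all genes. Different effects of hyperoxia on these genes in the 2 organs were thus not detected.

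Differences between the organs were large by comparison. In RA rats, Cat was 9.22-fold higher in kidney (interval 6.11 to 13.9, edgeR FDR = 7.27e-08), Sod1 1.82-fold higher in kidney (interval 1.44 to 2.30, FDR = 1.77e-04) and Sod2 1.59-fold higher in kidney (interval 1.29 to 1.97, FDR = 7.38e-04). Every kidney exceeded every aorta for these 3 genes, whose CPM reached at most 121, 208 and 108 in aorta and was at least 911, 333 and 139 in kidney. Sod3 was 2.32-fold higher in aorta (interval 1.71 to 3.15, FDR = 9.47e-05). For Sod3 the RA organs overlapped, with the lowest RA aorta at 597 CPM and the highest RA kidney at 619.

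Hmox1 was 1.92-fold higher in the aorta of RA rats (interval 1.11 to 3.32, edgeR FDR = 0.0335), but this call rested on RA aorta replicate 1. Without that library the log2 difference fell from 0.94 to 0.56 (FDR = 0.170), and in a fit with the shared library numbers as a block it was 0.85 (FDR = 0.116). Nqo1 did not pass this test between the organs, with a log2 difference of -0.13, aorta over kidney (interval -0.61 to 0.35, FDR = 0.621).

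In hyperoxia rats the order of the organs was alike for the catalase and dismutase genes. Cat was 11.0-fold higher in kidney (interval 7.26 to 16.7), Sod1 2.55-fold (interval 2.01 to 3.22) and Sod2 1.54-fold (interval 1.24 to 1.90), and Sod3 was 2.99-fold higher in aorta (interval 2.19 to 4.07). All 4 passed the threshold (edgeR FDR from 3.25e-08 for Cat to 0.00128 for Sod2). Hmox1 (log2 difference 0.34, FDR = 0.423) and Nqo1 (-0.30, FDR = 0.248) did not. Whether a difference between the organs itself changed with exposure is the interaction given above.

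Calls between the organs were common. In RA rats, 70.2% of 16025 genes were called, 34.5% higher and 35.6% lower in aorta, and 5 of the 6 antioxidant genes were called, 2 higher and 3 lower. In hyperoxia rats, 71.7% of genes were called, 35.2% higher and 36.5% lower in aorta, and 4 of the 6, 1 higher and 3 lower. These counts are near the background shares, and the 6 genes differed among themselves in the size and direction of the difference. The median absolute log2 difference was 0.90 for the 6 genes and 0.91 for all genes in RA rats. With library totals in place of trimmed-mean (TMM) normalization the median of all genes moved by -0.18 in RA and -0.15 in hyperoxia rats, and Cat, Sod1, Sod2 and Sod3 were still called.

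**Figure D4:**
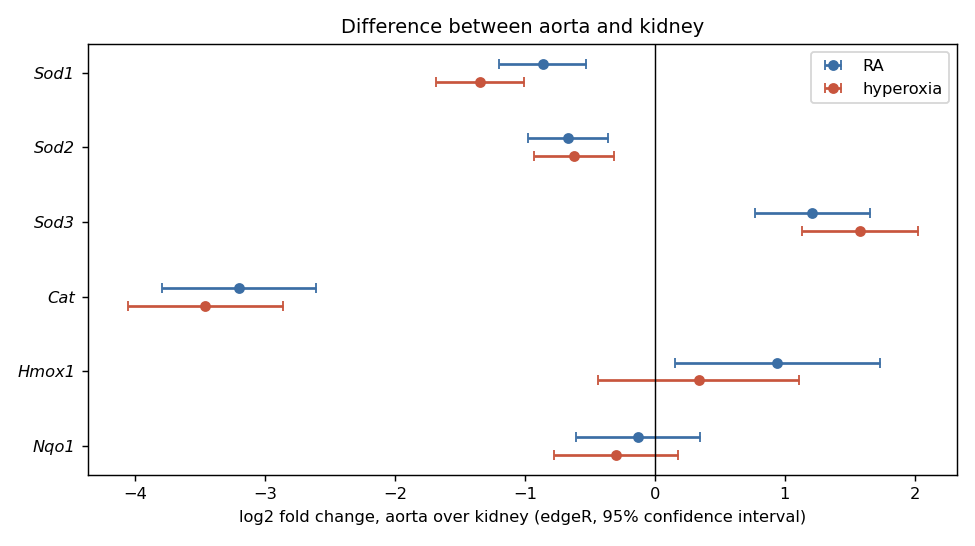
The horizontal axis gives the log2 difference of aorta over kidney with its 95% confidence interval from edgeR, in RA and in hyperoxia rats, for each gene on the vertical axis. Cat lies near -3.20 and -3.46, Sod1 and Sod2 below 0 and Sod3 above 0 in both groups, and Hmox1 in hyperoxia and Nqo1 in both groups cross 0.

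Ordered by mean CPM over the 4 groups, Sod1 ran from hyperoxia kidney (398) and RA kidney (373) to RA aorta (179.8) and hyperoxia aorta (142), and of the neighbours only the 2 RA organs differed by the test. Cat ran from hyperoxia kidney (1116) and RA kidney (986) to the aortas (91.8 in hyperoxia and 91.6 in RA), with the break between the organs. Sod2 lay at 149 and 147 in RA and hyperoxia kidney and at 86.2 and 83.8 in hyperoxia and RA aorta, and the hyperoxia kidney and aorta differed by the test. Sod3 had the reverse order, 1219.6 and 949 in hyperoxia and RA aorta and 457 and 451 in RA and hyperoxia kidney, and the neighbouring RA organs differed by the test. For Hmox1 the means ran from 5.67 in RA aorta through 4.95 in hyperoxia aorta and 4.36 in hyperoxia kidney to 3.39 in RA kidney, and for Nqo1 from 12.7 in hyperoxia kidney through 10.5 in RA kidney and 9.47 in hyperoxia aorta to 8.61 in RA aorta, and no neighbours that were tested passed.

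The levels also varied from library to library within an organ, and 15 pairs of genes were compared in each organ, 30 in all, on log2 CPM after TMM normalization over 8 libraries. In the kidney, Sod1 and Cat were high and low in the same libraries (Pearson r = 0.97, exact permutation p = 2.23e-04, adjusted 0.00670; Spearman rho = 0.93, exact permutation p = 0.00223, adjusted 0.0335). Hyperoxia kidney replicates 3 and 1 were the highest for both and replicate 2 the lowest. Without the 2 kidneys farthest from the median of Sod1, r was 0.88. Sod2 followed both, with r = 0.91 to Sod1 (exact permutation p = 0.00134, adjusted 0.0134; rho = 0.81, exact permutation p = 0.0218, adjusted 0.218) and r = 0.87 to Cat (exact permutation p = 8.93e-04, adjusted 0.0134; rho = 0.93, exact permutation p = 0.00223, adjusted 0.0335), and 0.84 and 0.88 without the 2 farthest kidneys.

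These relations were not particular to the 3 genes. Of 15039 genes in the kidney, 391 had r over 0.9 with Cat, 296 with Sod1 and 217 with Sod2. The relations of the 3 genes also depended on scaling. With library totals only, r was 0.94 for Sod1 with Cat (adjusted exact permutation p = 0.0885; rho 0.60), 0.65 for Sod1 with Sod2 and 0.54 for Sod2 with Cat, and 0 of the 15 renal pairs passed an adjusted p under 0.05. The TMM factors of the kidneys ran from 0.906 in hyperoxia replicate 3 to 1.14 in hyperoxia replicate 2, the libraries at the 2 ends of the relation, and their part in the result was not tested. After centring each oxygen group, r was 0.97, 0.93 and 0.91 and 0 pairs passed (lowest adjusted exact permutation p = 0.0833). With any 1 kidney left out, r stayed between 0.94 and 0.98 for Sod1 with Cat, 0.86 and 0.96 for Sod1 with Sod2, and 0.79 and 0.94 for Sod2 with Cat, although without hyperoxia kidney replicate 1 or replicate 3 the remaining 7 libraries gave 0 pairs past the threshold. In the aorta 0 of 15 pairs passed (lowest adjusted exact permutation p = 0.363), and r for Sod1 with Cat was 0.62, with 3 of the 4 hyperoxia aortas below every RA aorta in Sod1. After centring, the aortic r for Sod1 with Cat was 0.85 (adjusted exact permutation p = 0.0833, as for the kidney pairs), and with library totals it was 0.19. Whether the relation differs between the organs was not tested.

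**Figure D5:**
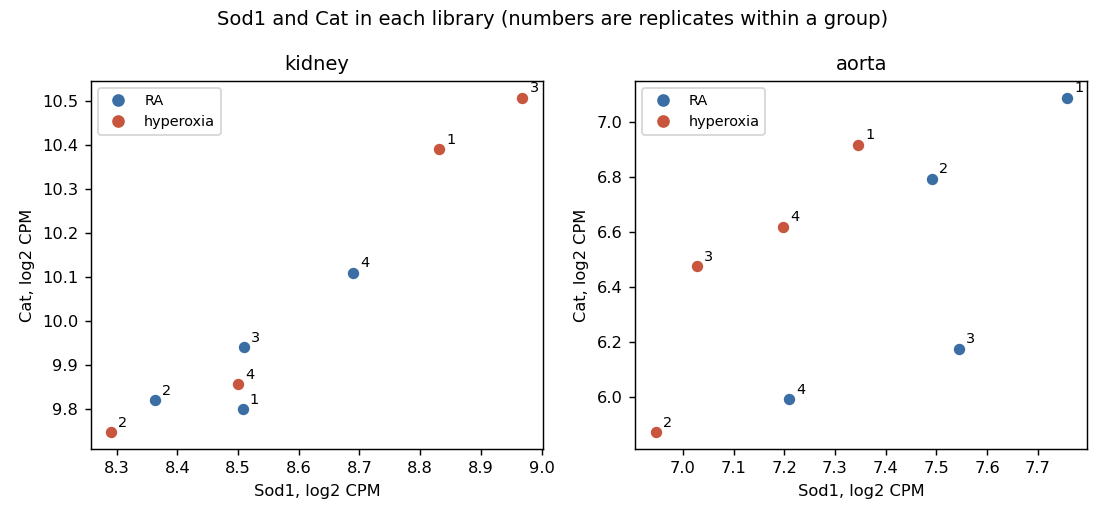
Each point is 1 library, with log2 CPM (TMM) of Sod1 on the horizontal and of Cat on the vertical axis, in kidney (left) and aorta (right), coloured by oxygen group and numbered by replicate. The kidney points lie near 1 line (r = 0.97), with hyperoxia replicates 3 and 1 at the upper end and hyperoxia replicate 2 at the lower, and the aorta points are more scattered (r = 0.62).

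Sod1, Sod2 and Cat, the 3 genes of the renal relation, are shown by the 250 bases before their start in the RefSeq genes of assembly GRCr8, which is not the build of the counts (rn6.0). Of the 6 genes, 4 were matched by symbol to a promoter in that table. In capitals are matches, on either strand, to the letters TGACNNNGC (the core of the antioxidant response element that Nrf2 binds), GGGCGG (GC box), CCAAT and TATAAA. None of the matches overlap. The Sod1 stretch is chr11:42942573-42942822 (+ strand), that of Sod2 chr1:50050169-50050418 (- strand) and that of Cat chr3:110329527-110329776 (- strand), each written 5′ to 3′ along its gene.
Sod1: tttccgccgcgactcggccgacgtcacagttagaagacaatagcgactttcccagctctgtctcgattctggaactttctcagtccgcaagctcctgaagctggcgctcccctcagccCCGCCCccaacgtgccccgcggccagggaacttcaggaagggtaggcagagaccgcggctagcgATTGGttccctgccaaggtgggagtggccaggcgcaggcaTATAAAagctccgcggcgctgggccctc
Sod2: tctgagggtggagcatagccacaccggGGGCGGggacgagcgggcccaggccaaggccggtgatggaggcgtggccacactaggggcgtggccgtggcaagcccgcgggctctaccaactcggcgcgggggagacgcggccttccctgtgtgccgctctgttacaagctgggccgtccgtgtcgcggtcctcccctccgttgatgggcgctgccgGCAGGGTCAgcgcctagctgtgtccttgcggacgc
Cat: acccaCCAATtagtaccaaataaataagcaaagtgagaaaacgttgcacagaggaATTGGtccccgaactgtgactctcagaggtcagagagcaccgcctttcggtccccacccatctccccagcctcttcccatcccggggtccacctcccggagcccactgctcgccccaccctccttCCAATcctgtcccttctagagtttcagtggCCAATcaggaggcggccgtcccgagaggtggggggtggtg
The Sod1 stretch holds a GC box, a CCAAT box and a TATA box, starting 132, 68 and 28 bases before the gene. That of Sod2 holds an antioxidant response element core 35 bases before the gene and a GC box, and that of Cat holds 4 CCAAT boxes and no other motif searched. The Nqo1 stretch (chr19:52220268-52220517, - strand) holds a GC box, a CCAAT box and a TATA box. Among 33469 rat promoters of this length, 10.1% hold the response element core, 30.5% the GC box, 34.0% CCAAT and 12.9% TATAAA. No motif of the 4 was held by all 3 genes of the renal relation. A match describes letters only and does not show that a factor binds there.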

How the data were processed

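Paired-end reads were assigned by the authors to rat transcripts (build rn6.0) with kallisto and summed by gene with tximport. The values deposited were estimated counts (expected counts) with no scaling, and tool versions are not given in the sources used here. In each library 24.3% to 28.8% of values were not whole (Cat in 15 and Sod3 in 12 of 16 libraries), so that counts were rounded.

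Tests used edgeR (version 4.0.16, in R 4.3.3) with TMM normalization, its expression filter, the quasi-likelihood test and Benjamini-Hochberg adjustment over all genes, with the call thresholds of the study. Standard errors came from the F statistics, and log2 CPM used a prior count of 2. Groups came from the labels, with replicates numbered in accession order. Alternatives were DESeq2 1.42.0, voom with quality weights (limma 3.58.1), other scaling and filters, thinning, and leaving out each library. DESeq2 without each hyperoxia kidney and the correlations without each library were chosen after seeing the data. The promoter search departed from the plan, which named Hmox1 and Nqo1, a window around the start and TGACNNNGC only. The promoters printed were picked from the renal correlations in these data. Simulated counts with known changes served to check edgeR, DESeq2 and voom for hyperoxia against RA in each organ and for the interaction. The correlation test was checked on random values. The comparisons between organs, the block fit and the permutation test of 4 against 4 libraries were not checked by simulation.

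The members and lists were chosen with earlier results of these data known. The symbols come from the rule that chose the 6 genes, since 0 of 23918 identifiers occur in the table of names (GRCr8), and the planned lists of other pathway genes and cell type markers were not analysed here. The text gives all 6 genes in every comparison and, by identifier, the 2 genes most like any of them.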

Additional observations from a re-analysis of the deposited data

Results flagged for a closer look

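The Cat level of RA kidney replicate 4, 1174.8 CPM, stood apart from the other 3 RA kidneys, which lay between 911 and 943 CPM. The gap to the nearest of them was 0.88 of the whole range of the group, above the 95% critical value for 4 samples. It was the 1 group of 24 tested (6 genes in 4 groups) to do so, and chance gives about 1.2. The rule used CPM without TMM normalization. With TMM the RA kidneys lay at 891, 904, 983 and 1106 CPM in replicate order, and the rule was not applied to these values. RA kidney replicate 4 had the highest TMM factor of the RA kidneys, 1.06. Sod1, Sod2 and Sod3 were also at their highest among RA kidneys in this library, at 439, 166 and 619 CPM. Without it the log2 fold change of renal Cat was 0.32 in place of 0.24, and Cat was not called in either fit.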

How the results depend on the processing

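The count of the 6 genes called was 0 in aorta, in kidney and for the interaction under every alternative run. Between the organs it was 4 to 5 with each library left out; Hmox1 in RA rats was lost without RA aorta replicate 1, and Nqo1 in hyperoxia rats passed without hyperoxia kidney replicate 4 (-0.47, FDR = 0.0565 by edgeR). Estimates that changed sign were all of genes not called. They were, in the aorta, Sod2 with voom (-0.14) and Cat with library totals (0.0018, and 0.0011 as the difference of mean log2 CPM). In the kidney they were Sod2 and Sod3 with library totals (-0.021 and -0.020, and -0.018 for Sod2 as the difference of means) and in DESeq2 without hyperoxia kidney replicate 3 (-0.030 and -0.069), and for the interaction Sod2 with voom (-0.18). With 1 library left out, log2 fold changes ran in the aorta from -0.10 to 0.12 (Sod2), -0.22 to 0.16 (Cat) and -0.74 to 0.13 (Hmox1), and in the kidney from -0.030 to 0.11 (Sod2) and -0.15 to 0.18 (Sod3). The interaction ran from -0.086 to 0.13 (Sod2) and -0.34 to 0.14 (Nqo1), and aorta over kidney in hyperoxia rats from -0.13 to 0.54 (Hmox1) and -0.47 to 0.012 (Nqo1).

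Over all genes, the number called in the aorta was 3, with 170 in DESeq2, 20 with voom, 8 with no filter and 2 to 15 with 1 library left out (15 without RA replicate 4, 6 without hyperoxia replicate 4). In the kidney it was 0, with 23 in DESeq2 and 13, 390, 23 and 132 in DESeq2 without hyperoxia replicates 1, 2, 3 and 4. For the interaction it was 0, with 85 in DESeq2, 6 with voom and 0 to 2 with 1 library left out. The cause was not tested. Renal pairs past the threshold numbered 3, and 0 after centring, 0 with library totals and 0 to 3 with 1 library left out, although r for these 3 pairs was 0.91 to 0.97 after centring and at least 0.79 with 1 library left out. Aortic pairs numbered 0, and 0 to 1 with 1 library left out (1 without hyperoxia replicate 4).

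The labels do not say whether the 3 library numbers that hyperoxia aortas and kidneys share mark the same rats. Correlations between the organs cannot decide it, since no aorta and kidney known to come from 1 rat were available for comparison. Correlations of the deviations from the group means were 0.0036 to 0.0673 for libraries with the same number, against -0.0919 to 0.116 for other pairs. In 0 of the 3 pairs with the same number was each library the best match of the other. Hyperoxia kidney replicate 1 did correlate best with the aorta of its own number, hyperoxia aorta replicate 2 (0.0673). With the number as a replicate block, 4 genes of the 6 were called between the organs in RA rats and 4 in hyperoxia rats, beside 69.2% and 72.6% of all genes, and 0 for the interaction. In the 6 libraries with shared numbers 11151 genes were called with the block and 11259 without. No paired analysis was possible for RA against hyperoxia because these groups share no numbers. With 4 animals a group, the intervals given in the report bound what could be seen, and the counting error reached 11.0% of a value for Hmox1.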

Other observations

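Among all genes that passed the filter, the pattern most like that of one of the 6 over 8 libraries was in the aorta that of ENSRNOG00000004640 to Cat (Pearson r = 0.995, Spearman rho = 1.00, the highest of 14999 genes). Among the best partners of the 6 genes in either organ, the second highest r was that of ENSRNOG00000000704 to Nqo1 in the aorta (r = 0.991, rho = 0.976). Both come from a search over all genes and are given as a description, and their names were not analysed here.

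Between-library spread differed by gene. In hyperoxia kidneys the coefficient of variation of CPM was 1.97% for Sod2 and 35.4% for Nqo1, and in RA kidneys 7.99% and 11.5%. For Sod2 the order of the groups depended on scaling. After TMM normalization the SD of its log2 CPM was 0.164 in hyperoxia kidneys and 0.064 in RA kidneys. For Hmox1 it was 6.76% in RA kidneys, below the counting error of 10.3% to 11.0% of those libraries, and 27.6% in hyperoxia kidneys. In the aorta Hmox1 had the widest spread of the 6 genes in both groups, at 45.1% in RA and 58.6% in hyperoxia. No difference in spread was tested.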
